A study of Homo sapiens with 6 samples.

Results

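The genes described here were grouped as chloride pathways that work with potassium efflux in cell volume control. They comprise the 5 subunit genes of the volume-regulated anion channel (LRRC8A to LRRC8E) and the calcium-activated anoctamins ANO1 and ANO6. The group also holds the sodium-potassium-chloride cotransporter gene SLC12A2, the chloride-proton exchanger gene CLCN3 and the chloride intracellular channel gene CLIC1. These genes were taken by gene symbol and not by a cut on their values, although earlier results of these data were known at the choice. All 10 were found once among the 32896 genes of the table. The libraries came from BHT101, an established human thyroid carcinoma cell line, 48 h after lipid transfection with a control plasmid (n = 3) or with a plasmid for SK4 (n = 3). All 6 cultures were thus transfected. The share of cells that took up plasmid is not given in the sources used here, nor is the origin of the replicates. The p-values therefore reflect library-to-library spread alone, which may be technical.

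SK4, also called KCa3.1, is the calcium-activated potassium channel encoded by KCNN4. When a swollen cell shrinks back, potassium leaves through such channels and chloride leaves through anion channels, and water follows. LRRC8A is the subunit every volume-regulated anion channel needs, and its LRRC8B to LRRC8E partners set what the channel lets through. SLC12A2, known as NKCC1, works the other way and loads the cell with sodium, potassium and chloride. The study looked for targets downstream of SK4, and for these genes the question is whether their transcripts differed between the plasmids.

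The first coding bases of the 5 LRRC8 genes are shown because the subunit genes differ in base composition. Of these genes, only the GC-poor LRRC8B and LRRC8D were lowest in both control replicate 3 and SK4 replicate 2 within their groups. Each run is the 120 coding bases from the start codon, 5′ to 3′, of the GENCODE release 29 transcript with the longest coding part (GRCh38, all on the plus strand), with G and C in capitals.
LRRC8A: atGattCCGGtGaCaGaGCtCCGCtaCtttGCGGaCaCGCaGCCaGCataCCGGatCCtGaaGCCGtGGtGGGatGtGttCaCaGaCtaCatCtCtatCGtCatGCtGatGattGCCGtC
LRRC8E: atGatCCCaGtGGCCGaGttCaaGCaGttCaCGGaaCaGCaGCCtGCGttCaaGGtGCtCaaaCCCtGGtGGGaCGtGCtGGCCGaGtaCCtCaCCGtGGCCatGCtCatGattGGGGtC
LRRC8B: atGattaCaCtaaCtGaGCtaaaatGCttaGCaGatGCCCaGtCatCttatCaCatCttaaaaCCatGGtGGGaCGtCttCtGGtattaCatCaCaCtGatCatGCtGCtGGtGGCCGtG
LRRC8C: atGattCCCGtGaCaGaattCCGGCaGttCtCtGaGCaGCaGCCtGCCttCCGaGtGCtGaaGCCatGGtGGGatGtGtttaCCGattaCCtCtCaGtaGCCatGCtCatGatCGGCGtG
LRRC8D: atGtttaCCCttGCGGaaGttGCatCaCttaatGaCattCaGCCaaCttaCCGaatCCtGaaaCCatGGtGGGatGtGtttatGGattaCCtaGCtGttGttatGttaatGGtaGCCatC
The runs lie at chr9:128907165-128907284 (LRRC8A), chr19:7895604-7895723 (LRRC8E), chr1:89582651-89582770 (LRRC8B), chr1:89686474-89686593 (LRRC8C) and chr1:89933069-89933188 (LRRC8D). Aligned without gaps, LRRC8A shared 89 of the 120 bases with LRRC8C, 80 with LRRC8E and 79 each with LRRC8B and LRRC8D. In the runs shown, G and C made up 54.2% of LRRC8A, 59.2% of LRRC8E, 44.2% of LRRC8B and 41.7% of LRRC8D, and the run of LRRC8C, at 54.2%, was as GC-rich as that of LRRC8A. Over the whole coding part, where LRRC8C sides with the GC-poor genes, G and C made up 59.4% of LRRC8A and 60.3% of LRRC8E, against 44.5% of LRRC8B, 43.6% of LRRC8C and 42.3% of LRRC8D. The contrast was widest at the third base of the codon, with 89.9% G or C in LRRC8A and 83.2% in LRRC8E against 47.4% in LRRC8D. LRRC8B, LRRC8C and LRRC8D lie next to one another on chromosome 1, within 89524836 to 89936611, while LRRC8A is on chromosome 9 and LRRC8E on chromosome 19.

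The depth estimated from the deposited values was 29500000 to 38300000 fragments a library, lowest in control replicate 3. KCNN4 was at 8.26 to 8.52 FPKM under the control plasmid and at 147.66 to 184.14 FPKM with the SK4 plasmid (fold 18.8, limma adjusted p = 8.83e-07; exact two-sided permutation p = 0.1, the smallest possible), which matches the labels, although the values do not separate plasmid from chromosomal transcripts. FPKM counts fragments per kilobase of gene and per fixed number of mapped fragments. Levels can thus be compared roughly between genes, since they depend on the gene length used. Of the epithelial markers, the keratin genes KRT8, KRT18 and KRT19 were abundant. EPCAM was at 10.39 to 12.68 FPKM, and CDH1 was low at 1.59 to 1.97 FPKM. Of the thyroid follicular markers, 5 of 7, thyroglobulin among them, stayed under 0.1 FPKM in every library. Of the leukocyte markers, PTPRC and CD3E stayed under 0.1 FPKM, and the summed level of 3.33 to 4.47 FPKM came almost wholly from CD14. Summed fibroblast and endothelial markers reached at most 0.71 and 0.40 FPKM. In control replicate 3 and SK4 replicate 2 many genes were lower than in the other libraries of their group, and a treatment label of control replicate 3 names the cell line BHT102 where its other labels name BHT101. Fold changes of members that were low in these 2 libraries are given with and without them, except for SLC12A2. Its fold is given with all libraries only.

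No difference between the plasmids was detected for any of the 10 genes, and for the 7 that were tested the 95% confidence intervals of the fold all lay between 0.822 and 1.41. A gene was tested if it reached 1 FPKM in at least 3 libraries, which 7 of the 10 did, and was called at a limma adjusted p below 0.05. None of the 7 was called, where 0.00898% of all 11139 tested genes were called (KCNN4 alone). At an unadjusted p below 0.05 the limma count was also 0 of 7, against 1.65% of all tested genes. Nor did the 3 SK4 values lie wholly above or wholly below the 3 control values for any of the 7, against 5.34% of all tested genes. The exact two-sided permutation p for the 10 members, untested ones included, lay between 0.4 and 1. The median log2 fold change of the 7 was 0.014, with 5 of 7 positive, beside a median of 0.011 and 57.9% positive over all tested genes. These signs turned on single libraries: without control replicate 3, 1 of 7 was positive with a median of -0.029 (39% of all tested genes positive), and without control replicate 2, 7 of 7 were positive. In bulk RNA, fewer cells expressing a gene and less RNA per cell cannot be told apart, and a change limited to transfected cells would be diluted by the others. Without control replicate 3 and SK4 replicate 2, none of the 7 was called either, against 0.0359% of the tested genes.

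LRRC8A, the obligatory subunit, had the smallest spread between replicates of the 7 tested members. Its level was 7.37, 7.09 and 6.95 FPKM in control replicates 1 to 3 and 7.0, 7.28 and 7.35 FPKM in SK4 replicates 1 to 3. The groups overlapped, and neither holds a library that stands apart. The means were 7.14 ± 0.214 and 7.21 ± 0.185 FPKM (SD, n = 3 each), a fold of 1.01 with a 95% confidence interval of 0.928 to 1.10 (limma adjusted p = 0.99997). The variation within the control group (coefficient of variation 3.00%) stood beside a counting error of up to 3.05% for a single library, from the estimated 1072 to 1468 fragments behind each value.

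LRRC8D, the partner subunit known for letting taurine and platinum drugs through the channel, was next in level. It held 4.39, 4.26 and 3.46 FPKM under the control plasmid and 4.54, 3.48 and 4.28 FPKM with the SK4 plasmid. One library of each group, control replicate 3 and SK4 replicate 2, was low, and the other 4 lay close together. The fold was 1.01 (95% confidence interval 0.836 to 1.23), a much wider interval than that of LRRC8A. Without both low libraries the log2 fold change was 0.025, beside 0.019 with all. Without control replicate 3 the log2 fold change was -0.076, and without SK4 replicate 2 it was 0.12 (limma, not called in either).

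LRRC8E held 2.20, 2.34 and 2.19 FPKM with the control plasmid and 2.38, 2.16 and 2.11 FPKM with the SK4 plasmid. These values overlapped, and control replicate 3 and SK4 replicate 2 lay within 0.05 FPKM of another library of their group (fold 0.990, 95% confidence interval 0.875 to 1.12). The exons of LRRC8E are overlapped by the antisense gene AC010336.1, which reached at most 0.38 FPKM. The overlap was at most 3218 nt, a sum over exons in which some bases may be counted more than once. Whether the authors' counting used strand is not given in the sources used here. LRRC8B held 1.16, 0.99 and 0.81 FPKM with the control plasmid and 1.13, 0.96 and 1.11 FPKM with the SK4 plasmid. It was again lowest in control replicate 3 and SK4 replicate 2, and it passed the filter through only 3 libraries (fold 1.06, 95% confidence interval 0.880 to 1.27). Its log2 fold change was 0.081 with all libraries, -0.0073 without control replicate 3 and 0.043 without both low libraries.

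LRRC8C was the scarcest subunit gene and did not reach the filter. It held 0.31, 0.36 and 0.33 FPKM with the control plasmid and 0.38, 0.27 and 0.31 FPKM with the SK4 plasmid, an estimated 114 to 162 fragments each. Here the highest and the lowest value were both in the SK4 group. In a fit of all 32896 genes without the filter its fold was 0.983 (95% confidence interval 0.849 to 1.14). LRRC8C and LRRC8D both share exons with AC093423.3, a gene model at up to 0.51 FPKM that spans parts of both. Reads could thus be split between them. LRRC8C was below 0.51 FPKM in every library, and the effect on either gene was not tested.

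Summed over the 5 subunit genes, the level was 15.43, 15.04 and 13.74 FPKM with the control plasmid and 15.43, 14.15 and 15.16 FPKM with the SK4 plasmid. The means of 14.7 ± 0.885 and 14.9 ± 0.675 FPKM (SD, n = 3 each) did not differ beyond their spread (exact two-sided permutation p = 0.7). LRRC8A made up 48.5% ± 1.83 of this sum with the control plasmid and 48.4% ± 3.04 with the SK4 plasmid (SD, n = 3 each; exact two-sided permutation p = 1). LRRC8D followed with 27.3% ± 1.85 and 27.4% ± 2.52, then LRRC8E with 15.3% ± 0.881 and 14.9% ± 0.827. LRRC8B gave 6.67% ± 0.814 and 7.14% ± 0.311, and LRRC8C 2.27% ± 0.224 and 2.14% ± 0.289. Within the groups the LRRC8A share was highest in control replicate 3 (50.6%) and SK4 replicate 2 (51.4%), the libraries in which the LRRC8D share was lowest (25.2% and 24.6%). With 3 libraries against 3, the smallest p the exact test allows is 0.1.

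**Figure D1:**
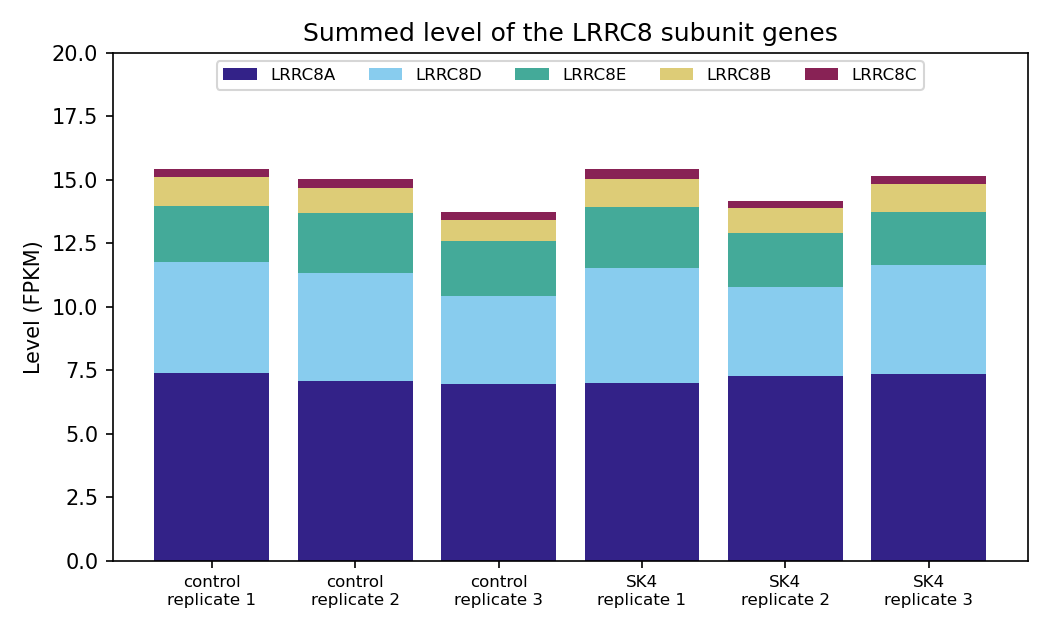
Stacked levels (FPKM) of the 5 LRRC8 subunit genes in each of the 6 libraries, 1 bar per library. LRRC8A fills between 45.4% and 51.4% of every bar, and the bars of control replicate 3 (13.74 FPKM) and SK4 replicate 2 (14.15 FPKM) are the shortest of their groups.

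Of the calcium-activated anoctamins, ANO1, the classical calcium-activated chloride channel, was close to the limit of detection. It was listed at 0.00, 0.01 and 0.01 FPKM in control replicates 1 to 3 and at 0.00 FPKM in each SK4 library. A value of 0.01 FPKM stands for about 2 estimated fragments, a figure left inexact by rounding to 2 decimals. A fall from the control level was thus not detectable at this depth, and no rise was seen. ANO6, a calcium-activated scramblase that moves phospholipids between membrane leaflets and also conducts ions, held 3.92, 3.98 and 3.12 FPKM with the control plasmid and 3.66, 3.26 and 3.66 FPKM with the SK4 plasmid. Control replicate 3 and SK4 replicate 2 were the low ones again, and the groups overlapped (fold 0.968, 95% confidence interval 0.822 to 1.14). The log2 fold change of ANO6 was -0.047 with all libraries and -0.097 without both low libraries. Without control replicate 3 it was -0.15, the most negative value any alternative gave for a member, and it was not called (limma).

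SLC12A2, the importer, stayed just under the filter in every library. It held 0.89, 0.96 and 0.67 FPKM with the control plasmid and 0.92, 0.74 and 0.86 FPKM with the SK4 plasmid, with a mean of 0.840 FPKM in both groups (SD 0.151 and 0.0917, n = 3 each). The low values again belonged to control replicate 3 and SK4 replicate 2. The fit without the filter gave a fold of 1.00 (95% confidence interval 0.828 to 1.21). Set against LRRC8A in the same library, the log2 ratio of the levels was -3.10 ± 0.249 with the control plasmid and -3.11 ± 0.186 with the SK4 plasmid (SD, n = 3 each; exact two-sided permutation p = 1), so the importer gene stood well below the LRRC8A gene under both plasmids. The SK4 minus control difference of this log2 ratio was -0.0040 with all libraries and -0.044 without both low libraries.

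CLCN3 encodes ClC-3, an exchanger mainly of endosomal membranes that was long discussed as a volume-sensitive channel. It held 2.76, 2.38 and 1.64 FPKM with the control plasmid and 2.68, 2.08 and 2.60 FPKM with the SK4 plasmid. It had the largest pooled SD of the tested members, with a coefficient of variation of 25.2% in the control group against at most 5.04% from counting, and control replicate 3 was the lowest library. Its fold of 1.08 had the widest interval of the 7 (95% confidence interval 0.828 to 1.41). Its log2 fold change was 0.11 with all libraries, -0.059 without control replicate 3, 0.035 without control replicate 3 and SK4 replicate 2, and 0.24 without control replicate 1 (limma, not called in any).

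CLIC1, a small protein that exists in soluble and membrane forms, was by far the most abundant member. Its level was 480.46, 493.66 and 525.91 FPKM with the control plasmid and 494.39, 524.06 and 493.00 FPKM with the SK4 plasmid. Control replicate 3 and SK4 replicate 2 were the highest libraries here, where they were the lowest for 5 other members. The means of 500.0 ± 23.4 and 503.8 ± 17.5 FPKM (SD, n = 3 each) gave a fold of 1.01 (95% confidence interval 0.940 to 1.08). An estimated 30129 fragments or more stood behind each value, so counting error (0.576% or less) was small beside the coefficient of variation of 4.68% in the control group.

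**Figure D2:**
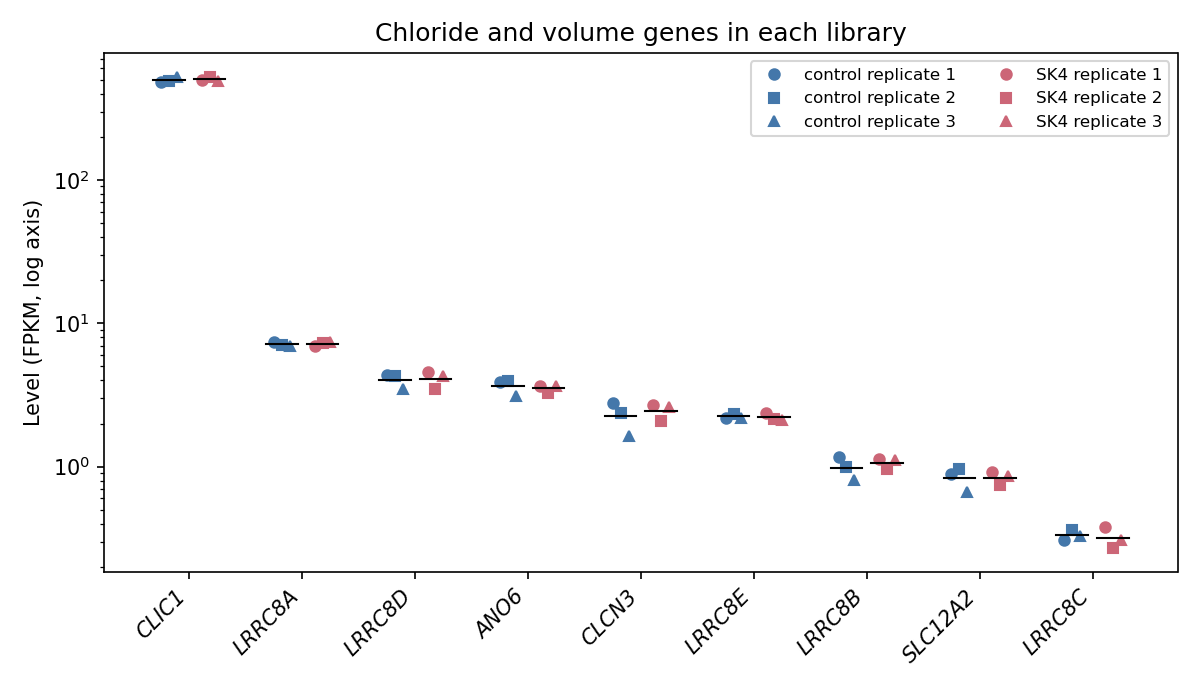
Level of 9 members in every library (FPKM, log axis; blue, control plasmid; red, SK4 plasmid; the symbol gives the replicate, black bars the group means). The values of both groups overlap for every gene shown, from CLIC1 at 480.46 to 525.91 FPKM down to LRRC8C at 0.27 to 0.38 FPKM; ANO1, at 0.00 to 0.01 FPKM, is not drawn.

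Ordered by mean level, CLIC1 (501.9 FPKM) came first, 70.0 times above LRRC8A (7.17 FPKM), followed by LRRC8D (4.07), ANO6 (3.60), CLCN3 (2.36), LRRC8E (2.23), LRRC8B (1.03), SLC12A2 (0.840), LRRC8C (0.327) and ANO1 (0.00333 FPKM). Among protein-coding genes of the table, the mean of CLIC1 exceeded 99.6% of genes, that of LRRC8A 76.1% and that of SLC12A2 44.3%. In this order LRRC8D and ANO6, CLCN3 and LRRC8E, and LRRC8B and SLC12A2 were neighbours whose ranges overlapped over the 6 libraries. LRRC8D was above ANO6, and LRRC8B above SLC12A2, in 6 of 6 libraries when compared within a library. CLCN3 was above LRRC8E in 4 of 6, and the order was reversed in control replicate 3 and SK4 replicate 2. The order of close neighbours also depends on the gene length used for FPKM. The union of exons and the longest transcript were 10664 and 6885 nt for SLC12A2, but 8213 and 8034 nt for LRRC8B. They were 8235 and 5975 nt for ANO6, and 4852 and 3950 nt for LRRC8D. The order per longest transcript was not tested.

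**Figure D3:**
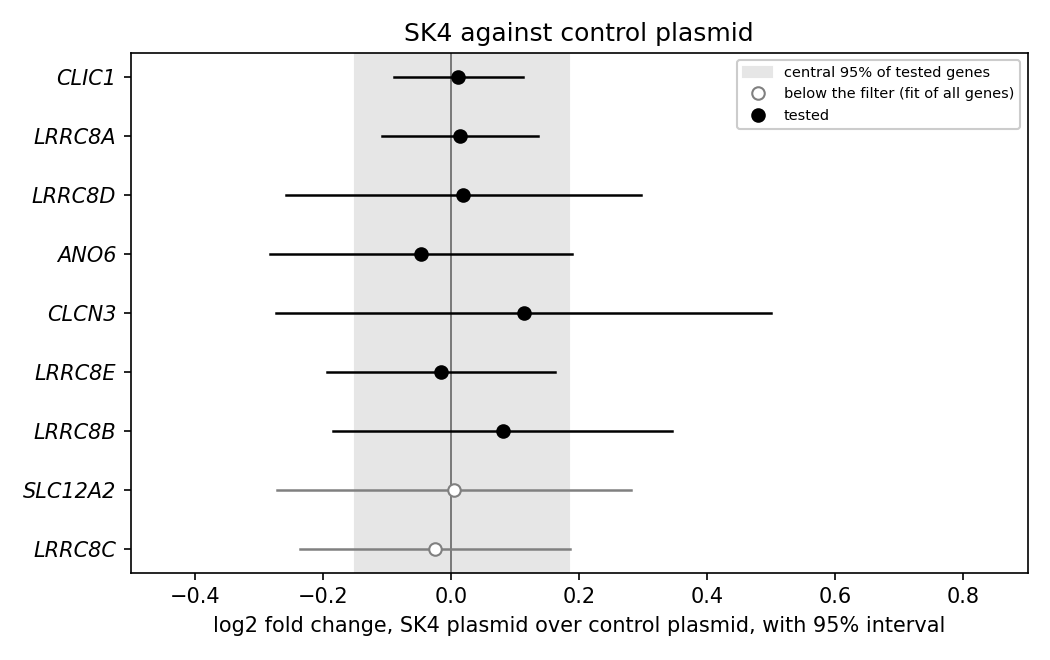
Log2 fold change of SK4 over control plasmid for 9 members with the 95% confidence interval (black, tested genes; grey open circles, genes below the filter, from the fit of all genes); the shaded band holds the central 95% of tested genes. Every interval crosses 0, and it is narrowest for CLIC1 and LRRC8A and widest for CLCN3; ANO1 is not drawn.

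Within each plasmid group, most members of low GC content shared a pattern of differences between libraries. The longest transcripts of 6 members (LRRC8B, LRRC8C, LRRC8D, ANO6, SLC12A2 and CLCN3) had a GC content below 43%, and those of the other 4 (LRRC8A, LRRC8E, ANO1 and CLIC1) above 53%. LRRC8B, LRRC8D, ANO6, SLC12A2 and CLCN3, 5 of the 6 low-GC members, were lowest in control replicate 3 within the control group and in SK4 replicate 2 within the SK4 group. None of the 4 GC-rich members showed this pattern in both groups, but ANO1, at 0.00 FPKM in each SK4 library, could not show it. LRRC8A (6.95 FPKM) and LRRC8E (2.19 FPKM) were also lowest in control replicate 3 within the control group, though not in SK4 replicate 2 within the SK4 group. The remaining low-GC member, LRRC8C, was lowest in SK4 replicate 2 but not in control replicate 3, at a depth where counting error alone reaches 9.36%. The pattern was not particular to these genes. Of all tested genes below 43% GC, 83.4% were lowest in both libraries, against 9.12% of those above 53% GC. In control replicate 3 the median tested gene below 43% GC was -0.19 from its group mean on the log2 scale, and in SK4 replicate 2 it was -0.13; above 53% GC the medians were 0.0061 and 0.028. The GC limits were set after the members' values had been seen.

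**Figure D4:**
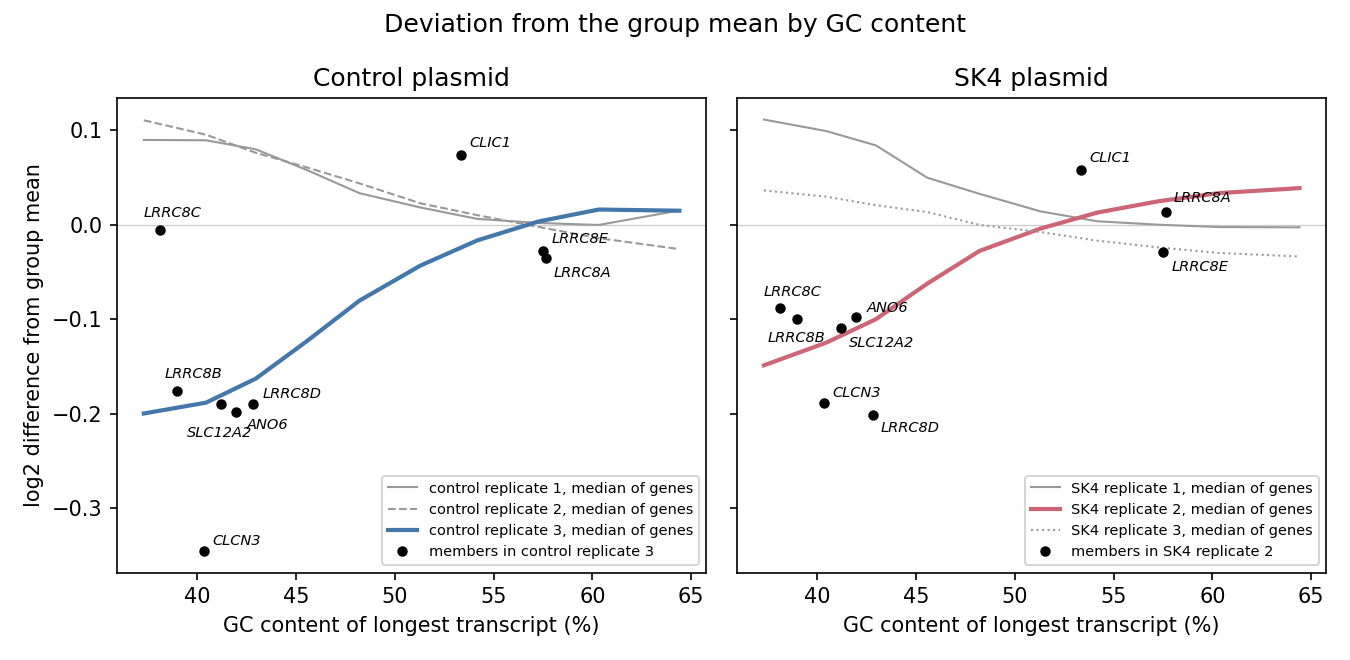
Log2 difference of a library from its group mean against the GC content of the longest transcript (%), for control (left) and SK4 libraries (right). Lines are medians of tested genes in 10 equal groups by GC content, with control replicate 3 and SK4 replicate 2 thick and the others grey; black points are 9 members in those 2 libraries. CLCN3 lies lowest in control replicate 3, and CLIC1 is above 0 in both.

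With the GC trend of each library removed, an alternative added after seeing the data, the spread between replicates narrowed for each of the 4 tested low-GC members. The pooled SD within groups went from 0.17 to 0.066 log2 units for LRRC8D, from 0.14 to 0.030 for ANO6, from 0.14 to 0.068 for LRRC8B and from 0.25 to 0.12 for CLCN3. For LRRC8A it went from 0.038 to 0.043, for CLIC1 from 0.059 to 0.072, and for LRRC8E from 0.062 to 0.061. Over all tested genes the median SD went from 0.095 to 0.069. The log2 fold changes in this fit lay between -0.066 (ANO6) and 0.087 (CLCN3), with the same sign as before for all 7 and none called (limma). The GC curve was fitted to the same libraries, and GC content was not separated from transcript length.

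**Figure D5:**
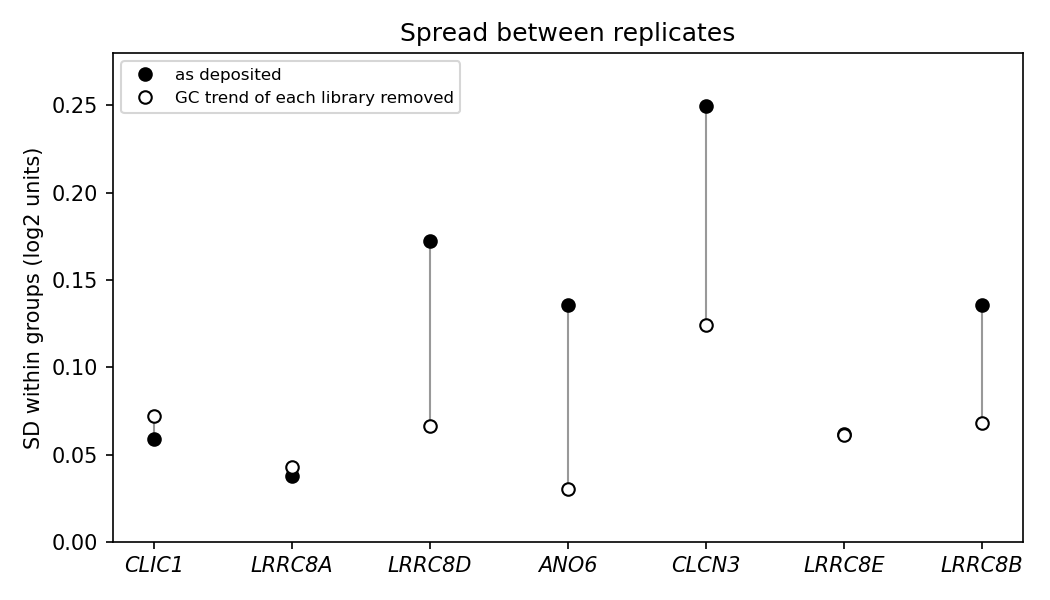
Pooled SD within groups (log2 units) of the 7 tested members as deposited (filled) and with each library's GC trend removed (open). The filled points of LRRC8D, ANO6, CLCN3 and LRRC8B stand above the rest at 0.14 to 0.25, and their open points lie at 0.030 to 0.12.

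Among 67 other genes of chloride transport and volume control, grouped in 9 lists, 64 were in the table and 32 were tested. None was called (limma), and 26 of the 32 had a positive log2 fold change, with a median of 0.034 beside 0.011 and 57.9% positive over all tested genes. With libraries scaled by trimmed means of log2 ratios (TMM), 20 of 32 were positive (49% of all tested genes), and without control replicate 3 also 20 of 32 (39% of all). The 3 SK4 values lay wholly above the control values for 4 of the 32, against 3.53% of all tested genes, and wholly below for 0 of the 32, against 1.81%. Among them, named after their values were seen, were SLC12A4 and SLC12A7, which encode the potassium-chloride exporters KCC1 and KCC4, and PACC1, the proton-activated chloride channel. SLC12A7 had the smallest unadjusted p of the positive genes, at 15.69, 15.86 and 15.24 FPKM with the control plasmid and 17.03, 17.11 and 15.98 FPKM with the SK4 plasmid. The lowest SK4 value was only just above the highest control value (fold 1.07, 95% confidence interval 0.991 to 1.15, limma adjusted p = 0.99997). SLC12A4 was at 1.81 ± 0.105 and 2.04 ± 0.10 FPKM (SD, n = 3 each).

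Each family also had its own most abundant gene, and none of these was called (limma). ANO10, an anoctamin of intracellular membranes, was at 7.35 ± 0.530 FPKM with the control plasmid and 7.37 ± 0.411 FPKM with the SK4 plasmid, above ANO6. CLCN7, the lysosomal chloride-proton exchanger, was at 13.2 ± 0.313 and 13.5 ± 0.810 FPKM, and CLIC4, the nearest in level to CLIC1 in its family, at 18.6 ± 2.39 and 19.4 ± 1.55 FPKM. The anion exchanger SLC4A2 was at 63.4 ± 0.327 and 63.6 ± 2.47 FPKM. AKR1B1, the aldose reductase that makes the osmolyte sorbitol, was at 232.7 ± 3.57 and 239.4 ± 6.59 FPKM. CAB39, a scaffold of the SPAK and OSR1 kinases that act on SLC12A2, was at 9.13 ± 0.870 and 9.07 ± 0.896 FPKM, and the aquaporin gene AQP3 at 6.85 ± 0.246 and 7.19 ± 0.731 FPKM. BEST1, a calcium-activated chloride channel, ranged from 25.94 to 40.09 FPKM with the control plasmid and from 26.51 to 33.42 FPKM with the SK4 plasmid, with control replicate 3 and SK4 replicate 2 the highest of their groups. Exon overlap with other genes was looked up for the members only. Whether reads of an overlapping gene add to the BEST1 level was not tested. CLNS1A, which had the smallest unadjusted p of the negative genes, was at 16.4 ± 1.18 and 15.5 ± 0.863 FPKM (SD, n = 3 each); its product, ICln, was once proposed as a swelling-activated channel and also assembles spliceosomal particles. Its groups overlapped (fold 0.945, 95% confidence interval 0.848 to 1.05).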

How the data were processed

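Poly(A) RNA of 6 libraries was sequenced as strand-marked 150 nt paired-end reads, per the labels' protocols. HISAT2 and GRCh38 were used, per the submitters' processing notes. The versions, the counter and the gene annotation are not given in the sources used here. FPKM were deposited by the authors, rounded to 2 decimals. Libraries were grouped by title. Depth was estimated from single-exon genes under 160 nt (561 in the table), with 170 to 206 low values used per library. It was chosen so that these values came out as whole fragments. Their share within 0.1 (at least 99.4%) is therefore no check of it. Among multi-exon genes, 76.4% to 79.5% of low values were whole within 0.2 when the exon union was the length. Fragments per gene use the exon union of GENCODE release 29 and are approximate, and cover counting error only.

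Values were taken as log2(FPKM + 0.5), so folds of low genes are understated. Genes at 1 FPKM in at least 3 libraries (11139) were fitted with limma 3.58.1 in R 4.3.3 (trended, robust prior variance; group as term; Benjamini-Hochberg adjustment over all tested genes). The script was tested on simulated data. The 18 exact two-sided permutation tests of the main analysis used scipy 1.17.1. Further exact tests were computed under the alternatives, and their p-values are not reported here. One scaling alternative used trimmed means of the log2 ratios of FPKM between libraries (TMM). GC content came from the longest GENCODE transcript. Members and lists were chosen with earlier results of these data known; named genes were the members, the most abundant gene of each list, and the smallest p in each direction, with SLC12A4 and PACC1 added after their values were seen. Deviations from the group means correlated at 0.306, -0.41 and -0.154 between same-numbered libraries 1 to 3. The largest correlation, 0.528, was between control replicate 3 and SK4 replicate 2, which both stand apart along GC content. These correlations therefore cannot decide whether the numbers pair the libraries, and the main fit did not pair them. The values of some list genes are not reported here.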

Additional observations from a re-analysis of the deposited data

How the results depend on the processing

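No member was called under any of the alternatives to the pseudocount, filter, scaling, prior variance, replicate block, GC trend or set of libraries (adjusted p from 0.949 to 1, limma). Of 107 member values under these alternatives, 93 kept their sign and 14 reversed; the reversed value largest in size was -0.076, for LRRC8D without control replicate 3. CLIC1 was -0.0018 with TMM scaling, and LRRC8A was -0.010 without control replicate 3 and SK4 replicate 2. In that setting 4 genes were called instead of 1, none of them a member. Leaving out each library in turn gave log2 fold changes of -0.0038 to 0.036 for LRRC8A, -0.0073 to 0.16 for LRRC8B, -0.076 to 0.12 for LRRC8D, -0.058 to 0.013 for LRRC8E, -0.15 to 0.0079 for ANO6, -0.059 to 0.24 for CLCN3 and -0.017 to 0.048 for CLIC1. The SK4 minus control difference then ranged from -1.57 to 1.47 percentage points for the LRRC8A share, from -0.32 to 0.56 FPKM for the summed LRRC8 level and from -0.14 to 0.11 for the log2 ratio of SLC12A2 to LRRC8A. The cause of these reversals was not tested. With the replicate number as a block, 1 gene was called, KCNN4 at a log2 fold change of 4.23, and the block changed no call. Only LRRC8A and CLIC1 of the members passed a filter of 5 FPKM. Depth limits ANO1, at about 2 estimated fragments or fewer, and LRRC8C, with a counting error of up to 9.36%.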
